A study of Mus musculus with 8 samples.

Results

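The MYC, MAX and MXD network is a set of related DNA-binding proteins that pair with each other and compete for the same DNA sites. It was followed here in 10 genes, taken by exact symbol from the 24421 genes of the count tables: Myc, Mycn, Bmyc, Max, Mxd1, Mxd3, Mxd4, Mxi1, Mnt and Mlx. All 10 were found, and 9 passed the filter on low counts, as 10396 genes of the tables did. Transcripts were counted at their 3' ends by RNA-seq in CD8+ T cells of the mouse, the lineage of cytotoxic lymphocytes. The compared groups were 4 libraries of LKB1-deficient cells and 4 libraries of control cells with wild-type LKB1, and the cells of both groups had been naive T cells put on plate-bound antibodies to CD3 and CD28 for 48 hours. LKB1, the product of Stk11, is an upstream kinase of the energy sensor AMPK. The sources used here do not give the allele, the way the gene was removed, the age of the mice or any pooling. They also do not say that each replicate is its own animal, and p-values therefore describe the spread between these libraries alone, which may be technical.

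MYC is a transcription factor that resting T cells hold at low levels and that antigen receptor signals induce, after which it drives growth, ribosome production and nutrient uptake. It binds DNA as a dimer with MAX at the E-box CACGTG. MXD proteins, MXI1 and MNT also pair with MAX, bind the same sites and recruit SIN3 corepressors, while MLX is a MAX-like partner that joins MNT, some MXD proteins and the glucose-sensing MondoA.

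Because the proteins of the network bind CACGTG, windows of promoter sequence from 250 bases before to 50 bases after each gene's annotated start (RefSeq, GRCm38.p6) were searched for that motif, which reads the same on both strands. The table held windows for 9 of the 10 members, all but Myc. CACGTG was present in the windows of Max, Mnt, Mxd4 and Mlx and not in those of Bmyc, Mxd1, Mxd3, Mxi1 and Mycn. Of all 32851 windows in the table, 7.15% held it. The windows of 4 members whose levels differed between the groups are shown 5' to 3', with CACGTG in capitals. The window of Mxd3, which also differed and had no CACGTG, is not shown. The motif began 3 bases before the start in Max (chr12:76962199-76962498, minus strand), 123 bases before it in Mnt (chr11:74830674-74830973, plus strand) and 219 bases before it in Mxd4 (chr5:34187661-34187960, minus strand), and the window of Bmyc (chr2:25706629-25706928, plus strand) is shown as one without it.
Max: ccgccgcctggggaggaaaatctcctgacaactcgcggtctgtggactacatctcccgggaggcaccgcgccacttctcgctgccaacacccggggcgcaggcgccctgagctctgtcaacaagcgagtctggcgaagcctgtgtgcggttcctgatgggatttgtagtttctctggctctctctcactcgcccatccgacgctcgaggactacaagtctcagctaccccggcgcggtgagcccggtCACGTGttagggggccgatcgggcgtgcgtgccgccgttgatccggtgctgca
Mnt: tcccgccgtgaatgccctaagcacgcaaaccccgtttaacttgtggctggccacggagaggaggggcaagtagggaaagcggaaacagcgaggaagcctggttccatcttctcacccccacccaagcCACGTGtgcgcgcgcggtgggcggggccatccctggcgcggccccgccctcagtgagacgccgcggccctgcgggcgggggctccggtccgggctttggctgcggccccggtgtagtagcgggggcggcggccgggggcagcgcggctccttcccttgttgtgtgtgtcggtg
Mxd4: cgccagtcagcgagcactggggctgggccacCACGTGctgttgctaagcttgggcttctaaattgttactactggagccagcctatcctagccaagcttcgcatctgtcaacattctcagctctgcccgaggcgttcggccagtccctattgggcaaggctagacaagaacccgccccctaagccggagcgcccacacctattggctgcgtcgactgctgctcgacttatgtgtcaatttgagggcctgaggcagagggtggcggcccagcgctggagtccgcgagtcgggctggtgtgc
Bmyc: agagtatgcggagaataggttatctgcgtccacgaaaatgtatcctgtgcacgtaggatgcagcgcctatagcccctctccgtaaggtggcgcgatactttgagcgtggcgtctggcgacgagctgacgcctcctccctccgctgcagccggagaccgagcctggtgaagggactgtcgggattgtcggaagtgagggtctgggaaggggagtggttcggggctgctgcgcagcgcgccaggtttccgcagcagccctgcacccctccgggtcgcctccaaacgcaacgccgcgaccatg
A match is a description of the sequence, and no match says only that these letters are not in the window.

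Gene counts per library came to 3454388 to 6356125 in LKB1-deficient cells and 7090252 to 12211930 in control cells. Levels are given as CPM on TMM-scaled library sizes, a unit that corrects for depth and not for transcript length, and each fold change sets LKB1-deficient over control cells, with its approximate standard error (SE). Sample identifiers begin with ET in replicate 1 and with EU in replicates 2 to 4 of each group, and what the letters stand for is not stated. Stk11 was at 64.4 to 107 CPM in LKB1-deficient and 67.8 to 101 CPM in control libraries (log2 fold change -0.03 ± 0.18, SE), and since the deleted part is not stated these 3' counts do not check the labels. On the first principal component the LKB1-deficient libraries fell at 12.5, 51.7, 6.79 and 54.4 in replicates 1 to 4, so that replicates 2 and 4 stood apart from 1 and 3; values without both are given beside the results. Of all tested genes 1286 rose and 1051 fell, a split that was 1023 and 1446 with upper quartile scaling and 829 and 1576 with total count scaling. Of the T cell markers Cd3d, Cd3e, Cd3g, Cd8a, Cd8b1, Cd5 and Cd2, all were detected, with a summed level of 1861 to 2827 CPM in LKB1-deficient and 3344 to 3906 CPM in control libraries. Of these 7, all tested, 3 fell, where 10.1% of all tested genes fell. The summed level of 5 B cell markers was 4.56 to 7.88 CPM in LKB1-deficient and 7.23 to 12.6 CPM in control libraries, with Pax5 at 0. Only 1 of the 5, Cd79b, passed the count filter, and it was lower. That of 6 myeloid markers was 0.27 to 2.91 and 0.779 to 1.66 CPM, and none of the 6 passed the filter. For 5 markers of mast cells and basophils it was 2.81 to 18.1 CPM in LKB1-deficient and 3.49 to 4.29 CPM in control libraries. Of the 2 of these that were tested, 1 rose, Gata2, where 12.4% of all tested genes rose. Gata2 was at 0.563, 9.62, 2.36 and 8.36 CPM in LKB1-deficient replicates 1 to 4, against 0.809, 1.14, 1.29 and 1.69 CPM in control replicates 1 to 4. The count filter asked for about 1.49 CPM in 4 libraries, which Gata2 met mainly through LKB1-deficient libraries, the group where it was high. Its rise is therefore not a like comparison with the share of all tested genes. For 4 markers of NK cells, Ncr1, Klrb1c, Klre1 and Eomes, the summed level was 91.4 to 166 and 75.3 to 127 CPM. Most of that sum was Eomes, at 82.9 to 151 CPM in LKB1-deficient and 65.9 to 116 CPM in control libraries. Klre1 was at 7.71 to 13.2 and 7.66 to 11.5 CPM, and Ncr1 and Klrb1c were at 2.04 CPM or less in every library. For the CD4 T cell markers Cd4 and Zbtb7b the summed level was 2.7 to 7.31 and 3.86 to 8.48 CPM. The part of such cells in the results was not tested, and in bulk samples fewer cells of a type and less RNA per cell cannot be told apart.

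In LKB1-deficient cells the partner Max and the antagonists Mxd3 and Mxd4 fell, the MYC relative Bmyc fell most clearly, and the antagonist Mnt rose. Of the 9 tested members, 1 rose, 4 fell and 4 did not pass an adjusted p of 0.05, where 12.4% of all tested genes rose and 10.1% fell, 22.5% in all (edgeR quasi-likelihood test, Benjamini-Hochberg adjustment). In 7 of the 9 there was no overlap between the groups, 2 with LKB1-deficient cells above and 5 below, against 26.1% of all tested genes. Mxd4 reached the filter through the control libraries, and of the 8 members over it in all libraries of both groups 1 rose and 3 fell, 6 had groups without overlap, 2 above and 4 below, and the median log2 fold change was -0.31. Over the 9 the median log2 fold change was -0.38, beside 0.00 over all tested genes, and without control replicate 2 it was -0.24. Each tested member kept its direction under upper quartile and total count scaling, which moved the median of all genes to -0.10 and -0.16. Without LKB1-deficient replicate 4, 2 members fell, and 441 of all tested genes fell, against 1051 in the main fit. Without both replicates 2 and 4 Bmyc alone passed, and that alternative left 260 called genes in the table against 2337.

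**Figure D1:**
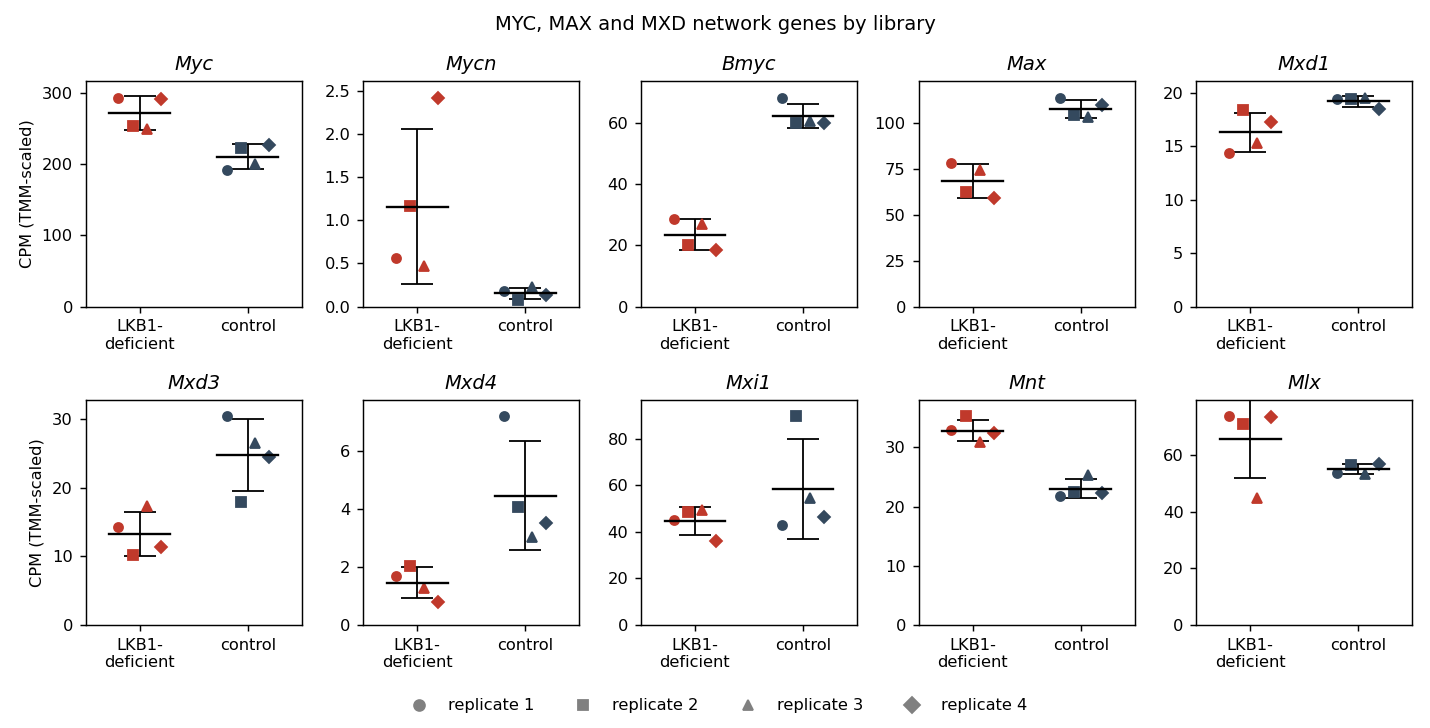
Each panel plots 1 of the 10 members, with the level in CPM on a linear axis from 0, each library as a symbol, LKB1-deficient cells on the left and control cells on the right, and the mean ± SD in black (n = 4 each). All LKB1-deficient libraries sit below the control libraries for Bmyc, Max, Mxd1, Mxd3 and Mxd4 and above them for Myc, Mycn and Mnt, and the groups overlap for Mxi1 and Mlx.

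Of the MYC factors, Myc itself was at 294, 254, 250 and 292 CPM in LKB1-deficient replicates 1 to 4, against 192, 224, 201 and 227 CPM in control replicates 1 to 4. Every LKB1-deficient library was above every control library, by a small margin. The means were 272 ± 23.6 and 211 ± 17 CPM (SD, n = 4 each), and the log2 fold change of 0.37 ± 0.13 (SE) did not pass (adjusted p = 0.0599, edgeR). The call was made by DESeq2 (adjusted p = 0.00665) and with each library's trend on transcript length removed (adjusted p = 0.0242), and in none of the 18 other alternatives, where total count scaling gave the smallest difference, a log2 fold change of 0.20 (adjusted p = 0.351). The gene is at 61985391 to 61990374 of chromosome 15, plus strand (GRCm38, GENCODE vM21; protein coding).

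Bmyc encodes a relative of MYC that resembles its amino-terminal part and, in rodents, lacks the region that pairs with MAX and binds DNA. Its level was 28.4, 20.1, 27.1 and 18.3 CPM in LKB1-deficient replicates 1 to 4, against 68.1, 59.7, 60.5 and 60 CPM in control replicates 1 to 4. The LKB1-deficient libraries all lay at less than the level of any control library, with replicates 2 and 4 the lowest. Bmyc fell 2.63-fold (log2 fold change -1.40 ± 0.16, SE, adjusted p = 0.00268), the smallest p among the members and rank 13 of all tested genes. The call held under all 20 alternatives, with log2 fold changes from -1.54 to -1.09 and a highest adjusted p of 0.0237. Bmyc is at 25706739 to 25707721 of chromosome 2, plus strand, has a longest transcript of 983 bases, and overlaps an antisense gene, A230005M16Rik, that was not analysed here. In the last 500 bases of its longest transcript none of the 451 stretches of 50 bases occurred in a transcript of another gene, Myc included, and the same held for the other 9 members.

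Mycn, the neural relative of Myc, was near the limit of detection. It had 2, 4, 3 and 9 counts in LKB1-deficient replicates 1 to 4, or 0.563, 1.17, 0.472 and 2.43 CPM, against 2, 1, 3 and 1 counts in the deeper control replicates 1 to 4, or 0.18, 0.081, 0.227 and 0.13 CPM. The groups did not overlap in CPM. All control libraries and LKB1-deficient replicates 1 and 3 were at or under a floor of 3 counts, so no fold is given. Mycn was under the count filter. A two-sided exact permutation test of the means gave p = 0.0286, the smallest that 4 libraries against 4 can give. Groups without overlap always give that value, so it adds nothing to the separation in CPM, and the counts themselves overlapped. With no filter on low counts the adjusted p of Mycn was 0.0226 (edgeR), and it rests on these few counts.

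Max, the shared partner, was at 77.9, 62.4, 74.4 and 59 CPM in LKB1-deficient replicates 1 to 4, against 114, 104, 103 and 110 CPM in control replicates 1 to 4. The groups were well apart, and within the LKB1-deficient cells replicates 2 and 4 were again the lowest. The means were 68.4 ± 9.16 and 108 ± 4.88 CPM (SD, n = 4 each), a 1.57-fold lower level (log2 fold change -0.65 ± 0.13, SE, adjusted p = 0.00987). The call held in 19 of 20 alternatives and ended without both LKB1-deficient replicates 2 and 4 (log2 fold change -0.49, adjusted p = 0.0801). Max is at 76937269 to 76962201 of chromosome 12, minus strand.

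The MXD antagonists were all lower in mean. Mxd4, which is linked to cells that leave the cycle, was at 1.69, 2.04, 1.26 and 0.809 CPM in LKB1-deficient replicates 1 to 4, against 7.19, 4.06, 3.03 and 3.51 CPM in control replicates 1 to 4. These are low levels, with 6, 7, 8 and 3 counts in the LKB1-deficient libraries against 80, 50, 40 and 27 in the control libraries, and Mxd4 passed the count filter through the 4 control libraries, with 2 of the 4 LKB1-deficient libraries also over it. It fell with a log2 fold change of -1.64 ± 0.39 (SE, adjusted p = 0.0189), a call lost without LKB1-deficient replicate 4 (adjusted p = 0.0592) or both replicates 2 and 4 (adjusted p = 0.121). It is at 34173883 to 34187720 of chromosome 5, minus strand.

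Mxd3, the MXD protein known from cycling cells, was at 14.3, 10.2, 17.3 and 11.3 CPM in LKB1-deficient replicates 1 to 4, against 30.5, 17.9, 26.5 and 24.6 CPM in control replicates 1 to 4. The groups only just separated, at LKB1-deficient replicate 3 and control replicate 2. The gene fell 1.84-fold (log2 fold change -0.88 ± 0.21, SE, adjusted p = 0.0189), which was no longer called on leaving out LKB1-deficient replicate 2 (adjusted p = 0.0539), LKB1-deficient replicate 4 (0.0596) or control replicate 3 (0.0521), without both LKB1-deficient replicates 2 and 4 (0.167) and among EU libraries only (0.0558). Mxd3 is at 55325168 to 55329823 of chromosome 13, minus strand, and overlaps Prelid1 on the other strand, which was at 102 ± 27.8 CPM in LKB1-deficient and 128 ± 12.5 CPM in control cells (SD, n = 4 each; edgeR adjusted p = 0.215); the libraries keep the strand, and how the counting treated strand is unknown from the labels.

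Mxd1, the founding antagonist, induced as cells differentiate, was at 14.3, 18.4, 15.3 and 17.3 CPM in LKB1-deficient replicates 1 to 4, against 19.4, 19.4, 19.5 and 18.4 CPM in control replicates 1 to 4. The groups touched without overlapping, and the log2 fold change of -0.24 ± 0.13 (SE) did not pass (adjusted p = 0.189). Mxi1 was at 45.3, 48.7, 49.3 and 36.1 CPM in LKB1-deficient replicates 1 to 4, against 43, 89.7, 54.4 and 46.5 CPM in control replicates 1 to 4. Control replicate 2 stood above the other libraries, the groups overlapped, and the log2 fold change of -0.38 ± 0.23 (SE) did not pass (adjusted p = 0.239); without control replicate 2 it was -0.10. Neither gene passed in any of 20 alternatives, where the lowest adjusted p was 0.0546 for Mxd1 and 0.107 for Mxi1.

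Mnt, the most widely expressed antagonist, moved the other way. It was at 32.9, 35.3, 30.8 and 32.3 CPM in LKB1-deficient replicates 1 to 4, against 21.8, 22.5, 25.4 and 22.2 CPM in control replicates 1 to 4. The libraries of each group lay close together, with coefficients of variation of 5.58% in LKB1-deficient and 7% in control cells, and the groups were apart. The gene rose 1.43-fold (log2 fold change 0.51 ± 0.12, SE, adjusted p = 0.0149). The call ended with total count scaling (log2 fold change 0.35, adjusted p = 0.105), without both LKB1-deficient replicates 2 and 4 (0.47, adjusted p = 0.0981) and among EU libraries only (0.49, adjusted p = 0.0528). Mnt is at 74830920 to 74845725 of chromosome 11, plus strand.

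Mlx was at 73.7, 70.8, 45 and 73.6 CPM in LKB1-deficient replicates 1 to 4, against 53.7, 56.5, 53.4 and 56.8 CPM in control replicates 1 to 4. LKB1-deficient replicates 1, 2 and 4 lay above all control libraries and replicate 3 lay below them, so the groups overlapped. The log2 fold change of 0.25 ± 0.16 (SE) did not pass (adjusted p = 0.272), and without LKB1-deficient replicate 3 it was 0.39 and passed (adjusted p = 0.0307). Mlx overlaps Psmc3ip on the other strand, which was at 54.3 ± 6.5 CPM in LKB1-deficient and 54.5 ± 3.51 CPM in control cells (SD, n = 4 each).

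**Figure D2:**
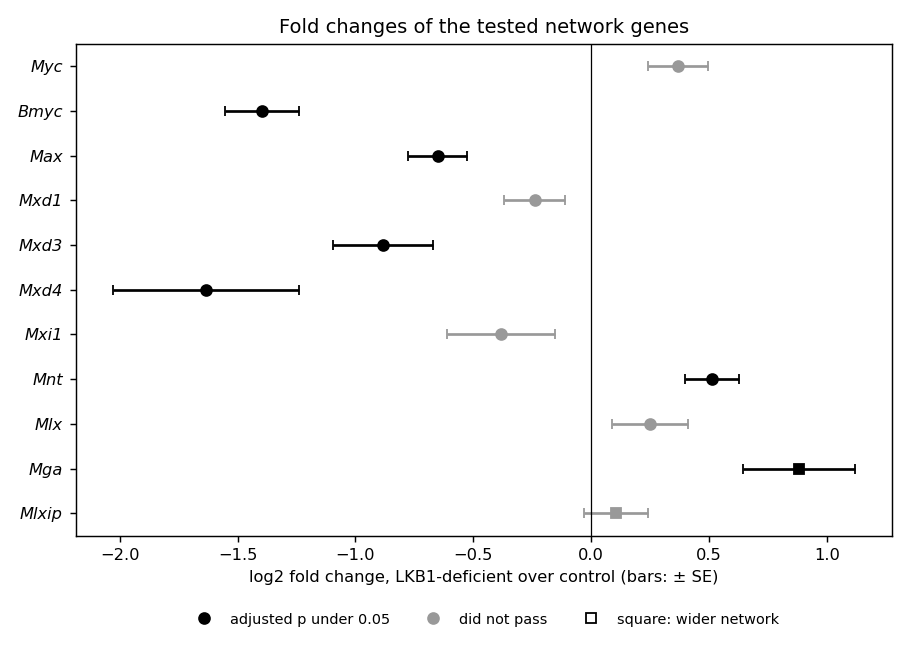
The plot gives the log2 fold change of LKB1-deficient over control cells for the 9 tested members and 2 tested genes of the wider network, with bars of ± 1 SE. Black symbols passed an adjusted p of 0.05: Mnt and Mga lie to the right of 0, and Bmyc, Max, Mxd3 and Mxd4 lie to the left.

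Of 4 further genes of the network, Mga, Mycl, Mlxip and Mlxipl, 2 were tested, 1 rose and none fell, where 12.4% of all tested genes rose and 10.1% fell. Mga, a large protein that pairs with MAX and joins a Polycomb repressor complex, was at 160, 252, 178 and 254 CPM in LKB1-deficient replicates 1 to 4, against 160, 124, 87.4 and 85.5 CPM in control replicates 1 to 4. The groups met at replicate 1 of each. Mga rose 1.85-fold (log2 fold change 0.88 ± 0.24, SE, adjusted p = 0.0274). It was no longer called when LKB1-deficient replicate 2 (adjusted p = 0.0741) or 4 (0.0824) was left out, without both (0.247), without control replicate 3 (0.0804) or 4 (0.0722), and with the trend on transcript length removed (log2 fold change 0.19, adjusted p = 0.269). Mlxip, encoding MondoA, was at 26.4 ± 3.61 CPM in LKB1-deficient and 24.4 ± 1.63 CPM in control cells (SD, n = 4 each; edgeR adjusted p = 0.594), and its sign differed between alternatives. Mycl had 1 or 2 counts in each LKB1-deficient library and 1 to 5 in the control libraries. Mlxipl, encoding the related ChREBP, had 0 counts in all LKB1-deficient libraries and 4 counts in all in the control libraries.

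The members varied differently within a group. In LKB1-deficient cells the coefficient of variation over the 9 tested members was lowest for Mnt, at 5.58%, and highest for Mxd4, at 36.8%; in control cells it was lowest for Mxd1, at 2.63%, and highest for Mxd4, at 42.2%. LKB1-deficient replicates 2 and 4 had the lowest values of that group for Bmyc, Max and Mxd3 and the highest for Mga. Myc did not follow this order, with its highest LKB1-deficient values in replicates 1 and 4. For likeness, log2 CPM over the 8 libraries was first centred on each gene's own mean, so that levels did not count. Among 7948 genes with a mean of at least 10 CPM, the closest to Myc were Fam53c, 4632415L05Rik and Scamp2. Their root mean square differences were 0.042, 0.048 and 0.060 on the log2 scale. Closest to Bmyc were A430093F15Rik, the interferon-inducible GTPase gene Ifi47, and Stoml1, at 0.124, 0.131 and 0.142. They were 2.33-, 2.30- and 2.39-fold lower in LKB1-deficient cells. Because closeness was measured over both groups, genes picked for it share the group difference of Myc or Bmyc by construction.

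Genes that MYC is known to activate were followed in a list of 54, of which 53 were tested. Of these 16 rose, none fell and 37 did not pass, where 12.4% of all tested genes rose. The median log2 fold change was 0.28, beside 0.00 over all tested genes, and it was 0.12 with total count scaling and 0.18 with upper quartile scaling. At an unadjusted p under 0.05, 21 were higher and 5 were lower, namely Cdk4, Exosc5, Ldha, Pkm and Slc1a5, and 2 were called lower by DESeq2 or under either other scaling. The 16 became 8 without LKB1-deficient replicate 2, LKB1-deficient replicate 4 or control replicate 3. They became 9 without control replicate 4, 10 with total count scaling and 3 without both LKB1-deficient replicates 2 and 4. Of all tested genes 637, 576, 560, 710, 829 and 162 rose in these settings, in the order given, against 1286 in the main fit.

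Of the targets of the nucleolus and ribosome assembly 10 of 23 rose, with a median log2 fold change of 0.60; this became 0 of 23 without both LKB1-deficient replicates 2 and 4, where the median was 0.35, and 3 without replicate 2. Without LKB1-deficient replicate 4, control replicate 3 or control replicate 4, 4 of these rose, 6 rose without control replicate 1 and 6 with total count scaling. Genes that rose over the whole table also became fewer in each of these settings, with 974 without control replicate 1. The numbers for the other settings are those given above for all activated targets. Utp20, of the small subunit processome, was at 139, 304, 129 and 264 CPM in LKB1-deficient replicates 1 to 4, against 98.3, 72.7, 55.2 and 65.6 CPM in control replicates 1 to 4. The groups did not overlap, and the gene rose 2.86-fold (adjusted p = 0.00999, edgeR). Nop2, an rRNA methyltransferase, rose 1.77-fold and Rrp12, of ribosome export, rose 1.81-fold. These 3 genes were named after their values were seen. Of 18 targets of metabolism and nutrient uptake 4 rose, and 2 of 12 of translation, cell cycle and transcription, where 12.4% of all tested genes rose; the differences between these 3 groups of targets were not tested. The 4 became 2 without LKB1-deficient replicate 4, control replicate 3 or both LKB1-deficient replicates 2 and 4, with total count scaling and among EU libraries only, and 3 of 18 rose without LKB1-deficient replicate 2. Over the whole table the genes that rose were fewer in these settings too. Of the 12, 1 rose when LKB1-deficient replicates 2 and 4 were left out together. Hk2, encoding hexokinase, was at 638, 544, 464 and 652 CPM in LKB1-deficient replicates 1 to 4, against 189, 235, 215 and 246 CPM in control replicates 1 to 4. Cdc25a, the phosphatase that starts S phase, rose 2.23-fold (adjusted p = 0.00464, edgeR), and Ccnd2, encoding cyclin D2, rose 2.70-fold (adjusted p = 0.00636, edgeR). The calls of Hk2 and Cdc25a held in all 20 alternatives.

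**Figure D3:**
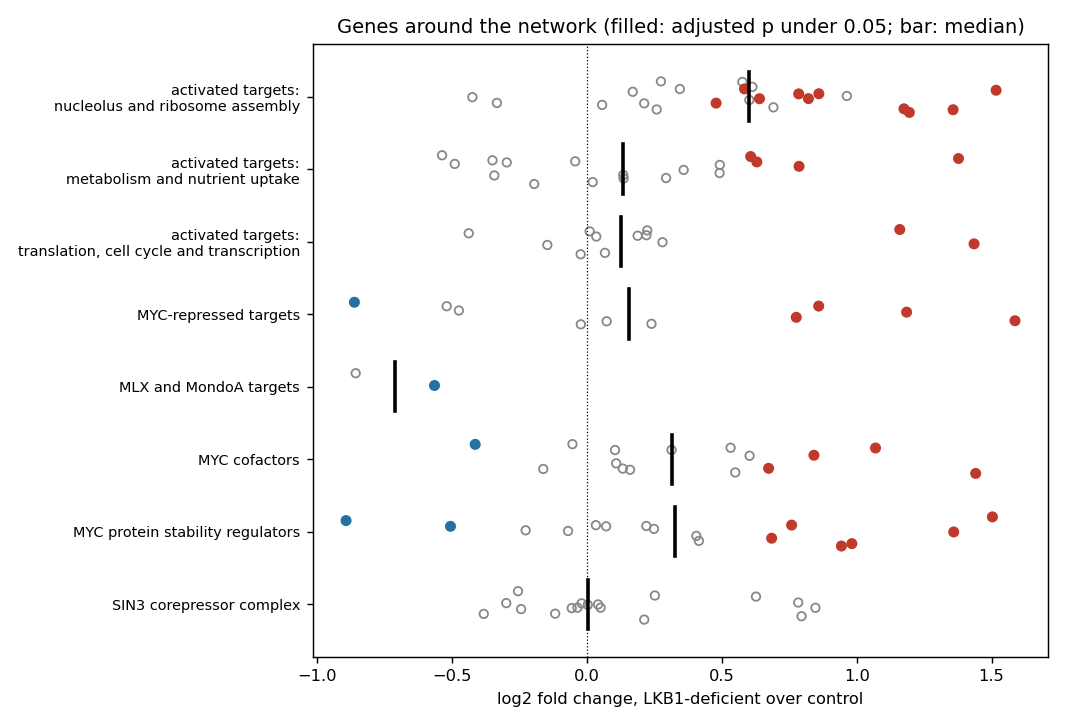
Each symbol is 1 tested gene, placed by its log2 fold change of LKB1-deficient over control cells in a row for its list, with filled symbols for an adjusted p under 0.05 and a black bar at the median. In the row of nucleolar targets 10 of 23 symbols are filled to the right of 0 and none to the left, and in the row of the SIN3 corepressor complex none of 17 is filled.

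CACGTG was present in the promoter windows of 14 of the 43 activated targets that had a window. Of the 12 of these 43 that rose 5 held it, and of the 30 that did not pass 9 held it. Over all tested genes with a window, 14.7% of the 984 with CACGTG rose and 7.52% fell, and 12.1% of the 7048 without it rose and 9.85% fell.

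Of 10 tested genes that MYC is known to repress, 4 rose, 1 fell and 5 did not pass, where 12.4% of all tested genes rose and 10.1% fell, so that the share that fell was near that of all genes. Cdkn1a, encoding the cell cycle inhibitor p21, was at 554, 555, 428 and 446 CPM in LKB1-deficient replicates 1 to 4, against 60.1, 158, 213 and 230 CPM in control replicates 1 to 4, and rose by 1.59 on the log2 scale (adjusted p = 0.0134, edgeR). Cdkn1b, encoding the inhibitor p27, was at 33.2, 28, 33.1 and 29.7 CPM in LKB1-deficient replicates 1 to 4, against 55.4, 60.3, 55.6 and 54.2 CPM in control replicates 1 to 4, and fell 1.82-fold (adjusted p = 0.00341, edgeR). Both inhibitors thus moved in opposite directions, each with groups that did not overlap. Klf6 and Gadd45b rose 1.81-fold and 1.71-fold. The 4 higher genes became 1 without LKB1-deficient replicate 2, LKB1-deficient replicate 4 or control replicate 3 and among EU libraries only, 2 without control replicate 1, 2 or 4, and 0 without both LKB1-deficient replicates 2 and 4. Genes that rose over the whole table were also fewer than 1286 in each of these settings, with 1172 among EU libraries only. The call of Cdkn1b held in all 20 alternatives.

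Txnip and Arrdc4 are arrestin-family genes that MondoA and MLX switch on when glucose is taken up. Txnip was at 94.2, 84.5, 86.6 and 83 CPM in LKB1-deficient replicates 1 to 4, against 146, 112, 138 and 121 CPM in control replicates 1 to 4. The groups were apart, and it fell 1.48-fold (log2 fold change -0.57 ± 0.13, SE, adjusted p = 0.0141), which did not pass without both LKB1-deficient replicates 2 and 4 (adjusted p = 0.117). Arrdc4 was at 3.94, 2.62, 7.24 and 1.62 CPM in LKB1-deficient replicates 1 to 4, against 7.19, 8.37, 10.2 and 3.51 CPM in control replicates 1 to 4. The groups overlapped and the difference did not pass (adjusted p = 0.165), while it passed without LKB1-deficient replicate 3 (0.0381), with the replicate block (0.0451) and with libraries thinned to equal depth (0.0469).

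Among 15 cofactors of MYC, 4 rose, 1 fell and 10 did not pass, where 12.4% of all tested genes rose and 10.1% fell. Trrap, the scaffold of histone acetyltransferase complexes that MYC recruits, rose 2.10-fold and Hcfc1, a MYC-binding cofactor, rose 1.59-fold, and both of these calls ended with the trend on transcript length removed (adjusted p = 0.125 and 0.17). Kat5, an acetyltransferase that MYC recruits, fell 1.33-fold (adjusted p = 0.0465), a call made in 4 of 20 alternatives. Leaving out any single library other than control replicate 2 ended the call of Kat5, with adjusted p from 0.0605 to 0.134. Without both LKB1-deficient replicates 2 and 4 no cofactor passed.

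Of 16 tested regulators of MYC protein stability, 6 rose, 2 fell and 8 did not pass, where 12.4% of all tested genes rose and 10.1% fell, a share near that of the regulators that fell. Fbxw7, the ubiquitin ligase subunit that marks phosphorylated MYC for destruction, was at 58.5, 100, 77 and 100 CPM in LKB1-deficient replicates 1 to 4, against 47.7, 52, 33.5 and 36.6 CPM in control replicates 1 to 4. It rose 1.98-fold (adjusted p = 0.0123, edgeR). Gsk3b, the kinase that prepares MYC for Fbxw7, rose 1.92-fold, a call lost with the trend on transcript length removed (log2 fold change 0.47 against 0.94, adjusted p = 0.0877). Usp36, a nucleolar deubiquitinase, rose 2.83-fold and lost its call without LKB1-deficient replicate 4 (adjusted p = 0.0519). Usp28, a deubiquitinase that opposes Fbxw7, was at 10.4, 6.7, 12.4 and 5.93 CPM in LKB1-deficient replicates 1 to 4, against 17.6, 17.5, 17 and 15.1 CPM in control replicates 1 to 4, and fell 1.86-fold (adjusted p = 0.0206, edgeR). Trpc4ap, a receptor for another MYC ligase, fell 1.42-fold. The 6 higher genes became 3 without LKB1-deficient replicate 4 or control replicate 3, where 576 and 560 of all tested genes rose, against 1286 in the main fit. The 2 lower genes became 0 without LKB1-deficient replicate 2, LKB1-deficient replicate 4 or control replicate 3, and 1 without control replicate 1 or 4. In the same order 476, 441, 451, 668 and 593 of all tested genes fell in these settings, against 1051 in the main fit. No regulator passed without both LKB1-deficient replicates 2 and 4.

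None of the 17 genes of the SIN3 corepressor complex, through which MXD proteins and MNT act, passed with edgeR, where 22.5% of all tested genes did. Their median log2 fold change was 0.00, and it was -0.15 with total count scaling. The genes were not all near that median. At an unadjusted p under 0.05, 3 were higher, namely Sin3a, Hdac2 and Arid4b (log2 fold changes 0.78, 0.80 and 0.85), and 1 was lower, Sin3b (-0.38). DESeq2 called 1 higher and 1 lower, 2 were called higher on leaving out LKB1-deficient replicate 1 and 1 on leaving out control replicate 1, and 3 were called higher among EU libraries only.

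**Figure D4:**
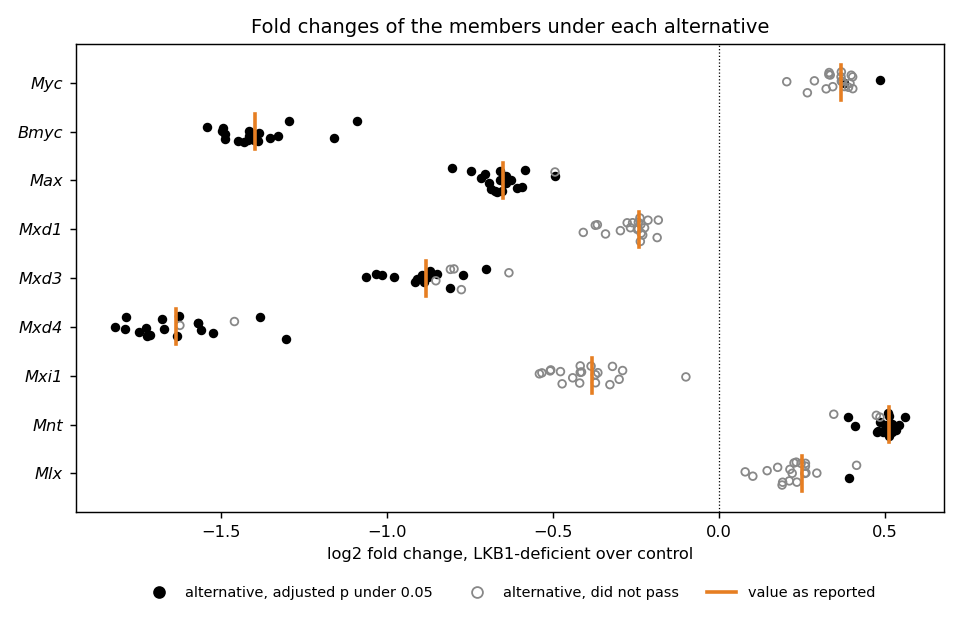
For each tested member the symbols give the log2 fold change of LKB1-deficient over control cells under each alternative, black where the adjusted p was under 0.05 and open where it was not, and the orange bar gives the value as reported. All symbols of a member lie on 1 side of 0; those of Bmyc are all black and those of Mxd1 and Mxi1 are all open.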

How the data were processed

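What the authors deposited are raw counts, with a table of gene symbols for each library. Per the labels' protocols, oligo-dT primers with a barcode started the cDNA, pooling came before PCR, and strand was kept. Molecular identifiers are not mentioned, and counts may hold PCR copies. Per the submitters' processing notes reads were aligned with STAR to mm10, the build also called GRCm38; for the counting program, annotation and versions the sources used here give nothing. Library sizes and tests left out 5 closing lines without a gene; the share outside annotated genes was 14.9% to 17.5% in LKB1-deficient and 12.1% to 14.3% in control libraries. The lower depth of the LKB1-deficient libraries makes low genes less precise there. Within groups every pair of libraries differed beyond sampling noise, with a chi-square of 10.9 to 46.3 for each degree of freedom, and all were kept.

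The fit used edgeR 4.0.16 in R 4.3.3: filterByExpr (minimum count 10, minimum total count 15), TMM scaling, the robust quasi-likelihood test without covariates over the whole table, Benjamini-Hochberg adjustment and a threshold of 0.05. The SE was taken as the size of the log2 fold change over the root of its F statistic. The groups were taken from the titles. Simulated counts for LKB1-deficient against control (10396 genes, 200 changed) gave back 17.9% of the 1.5-fold, 73.1% of the 2-fold and 100% of the 4-fold changes, and 10 of 137 calls were false. In the data 2337 genes were called, and the adjustment depends on how many genes change. These shares are therefore a check of the code and not the recovery in these data. The members and gene lists were chosen with earlier results of these data known. Named were all members; in each list, per direction, up to 3 called genes, lowest p first, and every gene of a list of 4 or fewer; and the 3 genes closest to Myc and to the called member with the smallest p. Genes named for an unadjusted p alone are outside this rule. Cip2a was not matched. The values of 1 further gene that this rule names are not reported here.

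The alternatives tried were size factors and the Wald test of DESeq2 1.42.0, scaling by upper quartile or by total count, no filter, limma-voom (limma 3.58.1), the replicate number as a block, the sample identifier's prefix as a covariate (ET for replicate 1, EU for replicates 2 to 4 of each group), and each library left out. Chosen after the data were seen were leaving out both LKB1-deficient replicates 2 and 4, which lay farthest from the controls, thinning to 3454388 counts per library, subtracting a lowess curve of span 0.3 on transcript length from each library (longest GENCODE vM21 transcript, 96.5% of genes), and EU libraries only. With 1 ET library a group, no test within ET could be made.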

Additional observations from a re-analysis of the deposited data

Results flagged for a closer look

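In 4 of 81 groups of 4 libraries checked for the named genes, 1 library stood apart from the other 3 by more than Dixon's criterion at the 95% level, which chance meets in about 1 of 20 groups. Mlx was at 45.01 CPM in LKB1-deficient replicate 3, against 70.8 to 73.7 CPM in the other LKB1-deficient libraries. Trrap was at 55.87 CPM in LKB1-deficient replicate 3, against 95.7 to 100.3 CPM in the others. Bmyc was at 68.1 CPM in control replicate 1, against 59.7 to 60.5 CPM in the other control libraries. Mxd1 was at 18.45 CPM in control replicate 4, against 19.4 to 19.5 CPM in the others, a gap of under 1 CPM.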

How the results depend on the processing

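Over 20 alternatives the tested members kept their direction, and Mlxip was the named gene that reversed (log2 fold change -0.065 with total count scaling, -0.031 without both LKB1-deficient replicates 2 and 4, and -0.29 with the length trend removed); where a cause is not named, it was not tested. The members that rose numbered 2 with DESeq2's Wald test, no filter or the length trend removed, 0 with total count scaling and 0 among EU libraries only. Without both LKB1-deficient replicates 2 and 4, 0 members rose and 1 fell, 3 activated targets rose, 0 genes of the wider network, the cofactors, the stability regulators and the repressed targets rose, 0 cofactors, stability regulators and MLX targets fell, and 260 genes of the table passed. Activated targets that fell numbered 2 with DESeq2's Wald test, total count scaling and upper quartile scaling, and 1 with the length trend removed; those that rose numbered 10 with total count scaling. With the length trend removed 0 genes of the wider network and 2 cofactors rose. The cofactors that fell numbered 0 with DESeq2 size factors, no filter, limma-voom, the replicate block, the prefix term, thinning, the length trend removed and EU libraries only. Repressed targets that fell numbered 2 with total count scaling, upper quartile scaling, the prefix term or the replicate block, and 1 rose among EU libraries only. Of the SIN3 genes 1 rose and 1 fell with DESeq2's Wald test, 1 fell under each of the other scalings, upper quartile and total count, and 3 rose among EU libraries only. MLX targets that fell numbered 2 with the replicate block or thinning.

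Leaving out 1 library at a time gave 1 to 2 members higher and 2 to 4 lower, 0 to 1 genes of the wider network higher, 4 to 5 cofactors higher and 0 to 1 lower, 3 to 7 stability regulators higher and 0 to 2 lower, 8 to 19 activated targets higher, 1 to 4 repressed targets higher and 1 to 2 lower, 0 to 2 SIN3 genes higher, 1 to 2 MLX targets lower, and 1011 to 2825 called genes in the table. The replicate numbers share no stated animal or day, and same-numbered libraries have the same identifier prefix. The deviations of same-numbered libraries correlated at -0.251, 0.291, 0.3 and -0.0861 in replicates 1 to 4. LKB1-deficient replicates 2 and 3 correlated best with the control of their own number, and replicates 1 and 4 with another. These few values cannot show whether same-numbered libraries share a source. The replicate block gave 1902 called genes and the same 1 higher and 4 lower members in number. Thinning left Mxd4 under the count filter, with no value. Low depth limits Mycn, Mycl, Mlxipl and Mxd4, whose counts in LKB1-deficient libraries were 9 or fewer.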
